A study of Mus musculus with 4 samples.

Results

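Mouse MC3T3-E1 preosteoblasts were compared after 6 and after 3 days in osteogenic medium, across all genes named on an Affymetrix Mouse Genome 430 2.0 array. The comparison uses 2 of the 4 arrays of the series, the osteogenic medium arrays of day 3 and day 6, and was defined by medium and day alone, not by any measured value. The other 2 arrays hold cells kept for 3 or 6 days in normal medium, and their own day difference is given beside the main results. A gene entered the comparison if its signal was above a floor of 57.8 on at least 1 of the 2 osteogenic arrays, which left 11947 of 18193 named genes.

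MC3T3-E1 is an immortal line from the calvaria, the skull cap, of newborn C57BL/6 mice, with fibroblast-like shape. Every group was this 1 line, grown at 37 °C in MEM α with 10% fetal bovine serum. Normal medium held nothing more, and osteogenic medium also held beta-glycerophosphate at 10 mM and, at 150 µM, ascorbic acid 2-phosphate. Each group was 1 array, so no difference has a test, a p-value or an error from biological spread. Below, "higher" and "lower" mean by 2-fold or more at day 6 against day 3, an absolute log2 difference of 1, between 2 single arrays. A day difference in 1 culture can hold the progress of differentiation, the density of the cells and the time since the medium was last renewed, and these cannot be told apart. In bulk RNA, fewer cells of a type and less RNA per cell cannot be told apart either.

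Osteoblasts build bone in stages: they divide, lay down a matrix rich in type I collagen, and then mineralise it. Ascorbate is the cofactor of the prolyl hydroxylases that let collagen fold and leave the cell, and beta-glycerophosphate is cleaved by alkaline phosphatase into phosphate for mineral. As the cells mature they leave the cell cycle, carry a heavy secretory load through the endoplasmic reticulum, and start to express genes of osteocytes, the cells buried in bone.

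The labelled cell type had its markers. Of 10 osteoblast markers 7 were in the table used here, and all 7 were above the floor on both osteogenic arrays. They were the bone transcription factor genes Sp7 and Dlx5, the alkaline phosphatase gene Alpl, the type I collagen genes Col1a1 and Col1a2, the bone sialoprotein gene Ibsp and the parathyroid hormone receptor gene Pth1r. Runx2, Bglap and Spp1 were not analysed here. Defining markers of leukocytes (Ptprc), endothelium (Pecam1, Cdh5), adipocytes (Pparg, Adipoq), skeletal muscle (Myod1, Myog), smooth muscle (Myh11) and cartilage (Acan) were at the floor on all 4 arrays. Of the listed markers on the array, this held for 11 of 15 of leukocytes, 6 of 12 of endothelium and 8 of 14 of adipocytes. It held for 7 of 15 of skeletal muscle, 8 of 16 of cartilage and only 2 of 15 of smooth muscle. Other markers of these lists were not: the signal of the smooth muscle actin gene Acta2 was 44845 at day 3 and 31436 at day 6 in osteogenic medium, and 48823 and 38867 in normal medium, and that of the cartilage collagen gene Col2a1 1967 at day 3 and 4134 at day 6 in osteogenic medium, and 903 and 854 in normal medium. Their part in the results was not tested.

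The arrays were alike in several technical measures but not in the 18S controls. Between 49.4% and 50.4% of probe sets lay above the floor on each, and the ratio of 3′ to 5′ control signal was 1.17 to 1.25 for actin and 0.756 to 0.769 for Gapdh. Pearson's r between the osteogenic arrays was 0.985. It was taken on log2 signals of all probe sets other than controls, with signals below the floor set to it. The control signal for the 5′ end of 18S ribosomal RNA was 746 on the osteogenic day 6 array, against 8250 at day 3 and 9162 and 5202 in normal medium, and that for its middle was 409, against 784 at day 3 and 994 and 807. Its part in the results was not tested, and since every difference uses that array, no value can be given without it.

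In all, 442 genes were higher at day 6, 3.7% of those measured, and 313 were lower, 2.62%. In normal medium 87 genes were higher (0.741%) and 87 lower (0.741%) of 11736 measured. The median over all measured genes was near 0 (-0.0012), with 5963 genes above and 5984 below it. Differences of 4-fold or more were seen for 44 of the higher and 27 of the lower genes. The standard deviation of the log2 difference over genes was 0.52 in osteogenic and 0.34 in normal medium. The error of a single probe set was 0.24 on the log2 scale, which covers probe error only. It came from 4956 genes with a second probe set, both of them above the floor on both osteogenic arrays. Probe sets at the floor are left out of it.

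Other probe sets of the same genes give a check of the probe, not of the culture. Of the higher genes 171 had another measured probe set, which lay on the same side of 0 for 146 (85.4%) and itself passed 2-fold for 58 (33.9%). Of the lower genes 141 had one, on the same side for 127 (90.1%) and past 2-fold for 83 (58.9%). At the floor on 1 of the arrays were 94 higher and 32 lower genes, for which a fold is a bound, written "at least". Some of the called genes were also past 2-fold between days in normal medium. Of all measured genes 0.741% were higher and 0.741% lower there, against 3.7% and 2.62% in osteogenic medium. Among called genes measured in both media, 240 of 404 higher and 253 of 309 lower genes had the same sign in normal medium. Their medians there were 0.078 and -0.34, against -0.015 for all genes measured in normal medium. Of the 442 higher genes 16 were also higher there, 3.62% of the osteogenic and 18.4% of the normal medium list, and 11 were lower there. Of the 313 lower genes 7 were also lower in normal medium, 2.24% and 8.05% of the lists, and 1 was higher.

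**Figure D1:**
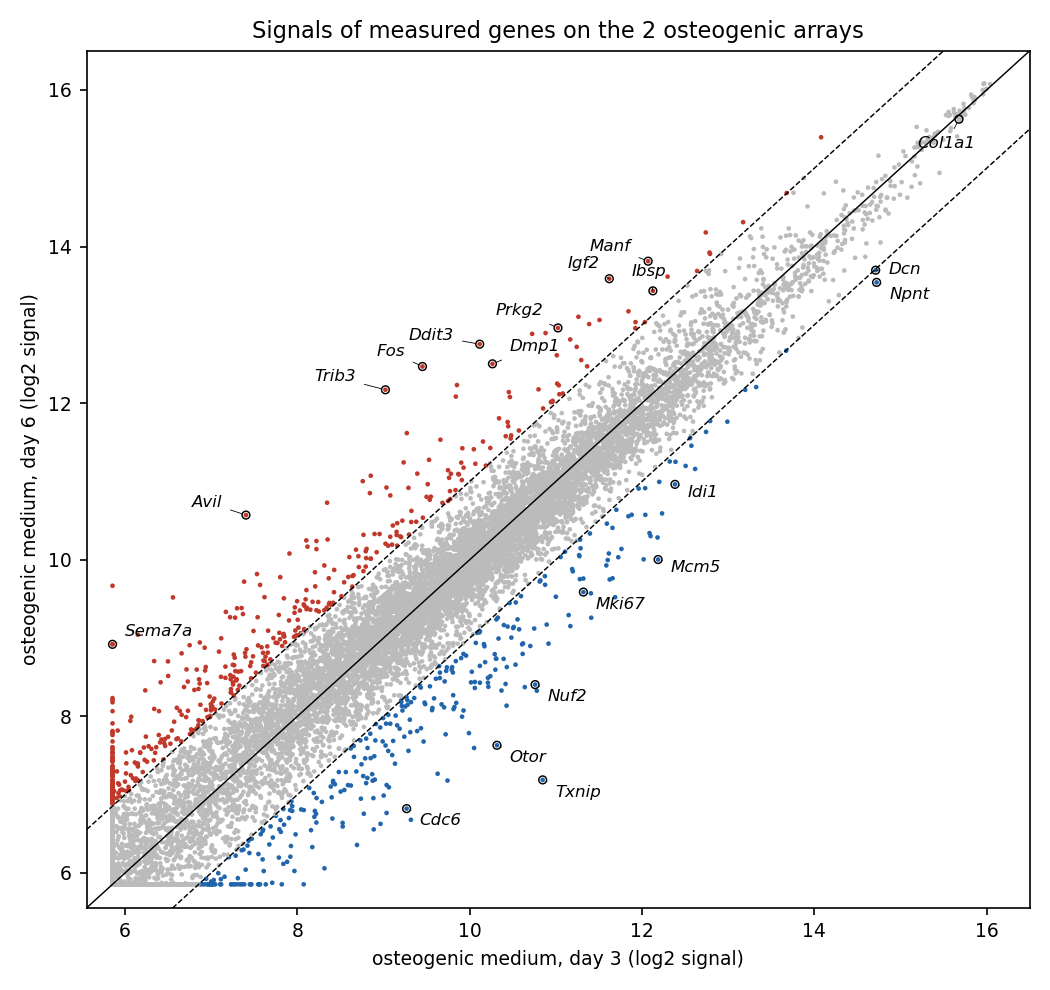
Log2 signal of each of the 11947 measured genes at day 3 (x axis) and day 6 (y axis) in osteogenic medium, with red points 2-fold or more higher, blue points 2-fold or more lower, dashed lines at 2-fold and signals below the floor drawn at it. Most genes lie close to the diagonal, with 442 above the upper and 313 below the lower dashed line.

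Several genes of bone mineral and its matrix phosphoproteins were higher at day 6. Of 17 measured members 5 were higher (29.4%) and 0 lower at day 6, against 3.7% and 2.62% of all measured genes. Of the members 12 lay above and 5 below 0. Their median log2 difference was 0.34, against -0.0012 for all genes and -0.18 for the same list in normal medium.

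Dmp1 encodes dentin matrix protein 1, an acidic phosphoprotein of osteocytes and dentin that helps to order mineral. Its signal was 1229 at day 3 and 5799 at day 6 in osteogenic medium, and 204 and 739 in normal medium, so that the osteogenic day 6 array was highest and the day difference was 4.72-fold. It was 1 of the 16 genes higher in both media, with a log2 difference of 1.85 in normal medium. Its other 2 probe sets gave 2.30 and 3.15 in osteogenic medium. The bone sialoprotein gene Ibsp, whose product seeds mineral, had a signal of 4468 at day 3 and 11064 at day 6 in osteogenic medium, and 386 and 255 in normal medium. It was 2.48-fold higher at day 6 in osteogenic medium, while its difference in normal medium was -0.60, and its second probe set gave 1.27. Phex, an endopeptidase whose loss causes phosphate wasting and soft bone, had signals of 170.0 and 463 and was 2.73-fold higher. In normal medium it was below the floor at both days. Fam20c, the kinase that phosphorylates secreted bone proteins, went from 874 to 1879, 2.15-fold. Slc20a1, a phosphate carrier named after its value was seen, had 1.13, but its other measured probe set, close to the floor, had the opposite sign (-0.20).

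Alpl, the alkaline phosphatase that frees phosphate for mineral growth, did not go with these genes. Its signals were 2394 at day 3 and 1756 at day 6 in osteogenic medium, and 815 and 540.1 in normal medium, a day difference of -0.45 in osteogenic and -0.59 in normal medium. The type I collagen genes were at -0.053 (Col1a1) and 0.0075 (Col1a2), and at -0.29 and -0.32 in normal medium. A second probe set of Col1a1 gave -0.042, and the other 2 of Col1a2 lay on the opposite side of 0, at -0.14 and, for a dim one, -0.67. Their signals in osteogenic medium were 52441 at day 3 and 50551 at day 6 for Col1a1 and 59632 at day 3 and 59942 at day 6 for Col1a2, near the top of the arrays' range, where a probe set may saturate, which was not tested. Panx3, a pannexin channel of skeletal cells, was at 0.44, against -0.18 in normal medium.

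Of 20 measured transcription factors of the osteoblast lineage 1 was higher (5%) and 0 lower, near the 3.7% higher among all measured genes. Their median was 0.21, against -0.11 in normal medium. Sp7, a master regulator of osteoblast formation, had signals of 924 at day 3 and 831 at day 6, a difference of -0.15. The 1 higher gene was Fosl1, an AP-1 subunit that promotes bone formation, with a signal of 143 at day 3 and 397 at day 6 in osteogenic medium, and 178 and 41.6 in normal medium. It lay at the floor in normal medium at day 6, so that its difference there was a bound of -1.62, while in osteogenic medium it was 2.77-fold higher. Across other processing settings the lowest log2 difference of Fosl1 in osteogenic medium was 0.57.

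Osteocyte genes had 3 of 13 measured members higher (23.1%, against 3.7% of all measured genes) and 0 lower. Their median was 0.12, against 0.020 in normal medium. The higher members were Dmp1, Phex and Hyou1, the last a chaperone that the folding list below also holds. Mepe, a matrix phosphoglycoprotein of osteocytes, was below the floor on the other 3 arrays and had a signal of 82.1 at day 6 in osteogenic medium, at least 1.42-fold above the floor. Sost, which encodes the Wnt inhibitor sclerostin of mature osteocytes, was at the floor on all 4 arrays.

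Proliferation genes held most of the lower genes found in any list. Mitosis genes encode the kinases, motors and kinetochore proteins that divide the chromosomes. Of 45 measured, 41 were lower and 0 higher at day 6, 44 lay below 0, and the median was -1.67. DNA replication genes, which encode the helicase, polymerases and nucleotide enzymes of S phase, had 23 of 35 lower, all 35 below 0 and a median of -1.26. These counts stand against 2.62% of all measured genes. In normal medium the same lists had medians of -0.49 and -0.31, with 0 and 1 members lower. There 45 of 45 mitosis and 33 of 35 replication genes also lay below 0.

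Mki67, the proliferation marker Ki-67, had a signal of 2555 at day 3 and 769 at day 6 in osteogenic medium, and 3255 and 2005 in normal medium. It was lowest on the osteogenic day 6 array, 3.32-fold below day 3. Spc24 and Nuf2, subunits of the complex that ties kinetochores to microtubules, were 5.49-fold and 5.11-fold lower. Cdc25c, the phosphatase that starts mitosis, was 5.06-fold lower, and so were the kinase genes Melk (4.81-fold) and Aurkb (4.11-fold) and Birc5 (4.04-fold), which encodes survivin. The second probe set of Cdc25c gave -1.13. Cdc25b was the 1 member of the mitosis list above 0 (0.28).

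Among replication genes, Cdc6, which loads the helicase at origins, had a signal of 616 at day 3 and 113 at day 6 in osteogenic medium, and 479 and 356 in normal medium. Mcm5, a subunit of that helicase, had 4662 at day 3 and 1026 at day 6 in osteogenic medium, and 2764 and 2087 in normal medium. Both lay above normal medium at day 3 and below it at day 6, with day differences of 5.45-fold and 4.55-fold. Rrm2, a subunit of ribonucleotide reductase, was 4.49-fold lower, and its other probe sets gave -1.93 and -1.77. Tk1, thymidine kinase, was 4.05-fold lower, Uhrf1, which carries DNA methylation through replication, 4.44-fold, and Mcm10 4.04-fold.

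Both lists began from a higher summed signal in osteogenic medium. Summed over the mitosis list, the signal was 82591 at day 3 and 27981 at day 6 in osteogenic medium, and 66881 and 47141 in normal medium. For the replication list the sums were 83019.7 and 35605 against 67189 and 55040.4. The sums of the osteogenic cultures were thus highest at day 3 and lowest at day 6 of the 4. Bright members weigh most in a sum, and not every member began higher in osteogenic medium. At day 3 Mki67 had 3255 in normal and 2555 in osteogenic medium, and the mitosis gene Cenpf 1605 and 1459. The members that went either way were not counted.

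Most genes that brake or start the cell cycle stayed short of 2-fold. Of 20 measured CDK inhibitors, D cyclins and related genes 0 were higher and 2 lower (10%), against 3.7% and 2.62% of all measured genes. Their median was -0.094, against -0.10 in normal medium. The 2 lower genes were E2f8 (-1.89) and E2f7 (-1.70), repressors of the E2F family that are themselves made in S phase. Among genes outside the lists, the 20 lowest also held Cdca5 (-2.45), which protects sister chromatid cohesion, the condensin gene Ncapg (-2.36), the nuclease gene Exo1 (-2.33), Shcbp1 (-2.29), Cdca2 (-2.27), the cohesion gene Esco2 (-2.26) and Rad51ap1 (-2.21). DNA repair genes below the floor at day 6 were Fanci (at least 3.43-fold lower), Eme1 (3.27), Rad54l (2.89) and Brip1 (2.61), with the replication gene Ticrr (2.66).

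Promoters of the cell cycle lists are known for binding sites of the factor NF-Y, which reads CCAAT, and of E2F, which reads TTTGGCGC and like sequences. RefSeq start sites of assembly GRCm38.p6 gave windows from 250 bases before to 50 after the start, for 38 of 45 measured mitosis genes and 31 of 35 replication genes. CCAAT on either strand was in 28 of the former (73.7%), against 42.8% of all measured genes and 41.1% of all genes in the promoter table. TTTGGCGC on either strand was in 5 of the latter (16.1%), against 1.13% and 0.585%. A match is a run of letters, not a shown binding site. Since the lists hold genes known for these sites, the shares describe the lists and not the day difference. Stretches of the strand of the gene, all upstream of the start, are printed for members with large day differences, with the CCAAT box of Ccnb2 (cyclin B2) and Aurka (a spindle kinase) and the E2F letters of Mcm5 and Mcm6 in capitals.
Ccnb2 (chr9:70421579-70421633, - strand): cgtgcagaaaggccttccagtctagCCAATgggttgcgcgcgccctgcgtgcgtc
Aurka (chr2:172370592-172370646, - strand): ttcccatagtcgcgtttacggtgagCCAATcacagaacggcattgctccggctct
Mcm5 (chr8:75109335-75109392, + strand): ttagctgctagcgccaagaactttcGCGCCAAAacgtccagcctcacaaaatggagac
Mcm6 (chr1:128359720-128359777, - strand): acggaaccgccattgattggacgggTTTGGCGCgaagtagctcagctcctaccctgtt
Ccnb2 was at -1.80, Aurka at -1.69, Mcm5 at -2.18 and Mcm6 at -1.46 between the days.

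Genes of protein folding in the endoplasmic reticulum gave the largest count of higher genes of any list. The list holds chaperones, disulfide isomerases and the sensors and factors of the unfolded protein response, by which cells enlarge their folding capacity. Of 33 measured members 16 were higher and 0 lower, against 3.7% of all genes, and 32 lay above 0. The median was 0.996 in osteogenic and 0.15 in normal medium, where 0 of 34 members were higher and 25 lay above 0.

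Ddit3, the stress-induced factor CHOP, had a signal of 1109 at day 3 and 6901 at day 6 in osteogenic medium, and 1279 and 1423 in normal medium. Only the osteogenic day 6 array was high, 6.22-fold above day 3, and the second probe set, whose day 3 signal was near the floor, gave 1.15. Sdf2l1, a partner of chaperones in the reticulum, had 916 at day 3 and 4341 at day 6 in osteogenic medium, and 942 and 1173 in normal medium, 4.74-fold. Manf, a secreted stress-induced factor, was 3.34-fold higher, the co-chaperone gene Dnajb9 3.22-fold, the disulfide isomerase gene Pdia4 3.08-fold, Creld2 3.06-fold and the chaperone gene Hyou1 2.57-fold. Hspa5, which encodes BiP, the main chaperone and stress sensor of the reticulum, was named for its promoter below and had signals of 17299 at day 3 and 43094 at day 6 in osteogenic medium, and 17556 and 19526 in normal medium, a difference of 1.32.

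Many such genes carry an ER stress response element in the promoter, CCAAT followed by 9 bases of any kind and CCACG, which the factors ATF6 and NF-Y read together. It contains the CCAAT box named above. It was found, on either strand, in 9 of the 29 measured members with a promoter (31.0%), against 14 of 9700 measured genes (0.144%) and 37 of 27025 genes (0.137%). Such genes make up the list, so this share describes the list and not the day difference. The holders were Hspa5, Hsp90b1, Calr, Canx, Pdia6, Dnajc3, Creld2, Syvn1 and Ero1b. Shown are those with the largest day differences, upstream of RefSeq starts of GRCm38.p6, with the element in capitals. In Creld2 and Ero1b it reads from the opposite strand, as CGTGG, the gap and ATTGG.
Creld2 (chr15:88819495-88819563, + strand): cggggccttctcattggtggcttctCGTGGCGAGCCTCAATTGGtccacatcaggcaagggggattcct
Ero1b (chr13:12565657-12565725, + strand): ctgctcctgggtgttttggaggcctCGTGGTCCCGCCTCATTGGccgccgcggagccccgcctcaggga
Hspa5 (chr2:34772000-34772068, + strand): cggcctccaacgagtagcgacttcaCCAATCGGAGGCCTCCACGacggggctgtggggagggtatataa
Pdia6 (chr12:17266466-17266534, + strand): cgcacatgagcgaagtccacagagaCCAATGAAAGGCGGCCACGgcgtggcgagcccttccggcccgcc
The day differences of the holders ran from 0.47 (Canx) to 1.61 (Creld2), and those of Ero1b, an oxidase that supplies disulfides, and Pdia6 were 1.34 and 1.05. Ddit3 and Sdf2l1, the highest of the list, were not among the holders, so the holders were not its highest genes. Only exact matches near a RefSeq start were sought, in the 29 of 33 measured members with a promoter. An element of another form or place would be missed.

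Transport after folding had no gene past 2-fold. Of 32 measured genes of the translocon and of transport vesicles 0 were higher and 0 lower, with a range from -0.36 to 0.66 and a median of 0.047, against 0.055 in normal medium.

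Genes of the amino acid response, driven by the factor ATF4 when amino acids run short or the reticulum is stressed, lay mostly above 0, as did the folding genes. Of 33 measured, 9 were higher (27.3%, against 3.7% of all measured genes) and 0 lower, 31 lay above 0, and the median was 0.69. In normal medium 28 of 29 lay below 0 with a median of -0.31, so the medians of the 2 media lay on opposite sides of 0; the difference between media was not tested.

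Trib3, a pseudokinase and target of ATF4 and CHOP, was second highest among the genes above the floor on both arrays. Its signal was 519.6 at day 3 and 4609.5 at day 6 in osteogenic medium, and 839.9 and 414 in normal medium, 8.87-fold higher at day 6 in osteogenic medium and at -1.02 in normal medium, and the second probe set gave 2.07. Nupr1, a small stress-induced nuclear protein, had 1885 at day 3 and 7615 at day 6 in osteogenic medium, and 2549 and 2745 in normal medium, 4.04-fold. Chac1, which breaks down glutathione, was 3.27-fold higher, Aldh1l2, a mitochondrial folate enzyme, 2.78-fold, the factor gene Atf5 2.50-fold, and the cationic amino acid carrier gene Slc7a3 at least 2.42-fold. Atf4 itself was at 0.74, short of 2-fold. Aminoacyl-tRNA synthetases, which load amino acids on their tRNAs, had 0 of 19 members higher but 14 above 0, with a median of 0.37 in osteogenic and -0.28 in normal medium.

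The C/EBP-ATF response element read by ATF4 and its partners was searched as TGATGNAA on both strands, N being any base. It was in 9 of 27 measured members with a promoter (33.3%), against 2.61% of measured and 4.51% of all genes. The list was drawn up as genes of this response, so the share says nothing of the day difference. The holders were Trib3, Chac1, Asns, Slc7a11, Slc1a4, Vldlr, Nupr1, Fgf21 and Jdp2. Shown are upstream stretches of Nupr1 and Chac1, the highest holders with a match before the start, and of the asparagine synthetase gene Asns, in which this element is best known, from RefSeq GRCm38.p6 with the element in capitals.
Nupr1 (chr7:126625548-126625605, - strand): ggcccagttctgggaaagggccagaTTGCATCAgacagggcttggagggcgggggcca
Chac1 (chr2:119351024-119351081, + strand): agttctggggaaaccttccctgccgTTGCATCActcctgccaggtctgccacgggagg
Asns (chr6:7693210-7693257, - strand): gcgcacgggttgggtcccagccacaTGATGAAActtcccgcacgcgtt
Asns was at 0.66 in osteogenic and -0.83 in normal medium, below 2-fold in both.

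**Figure D2:**
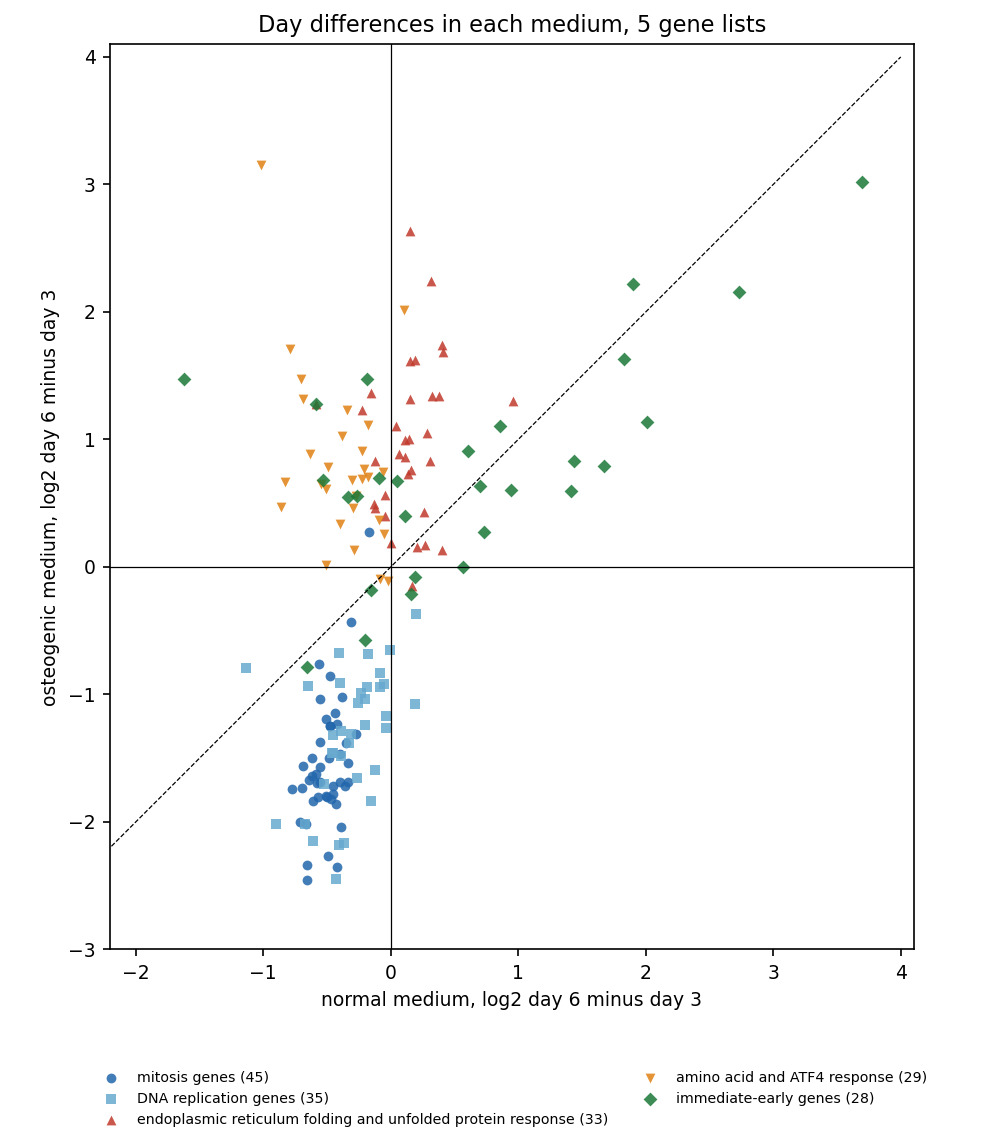
Log2 day difference in normal medium (x axis) and in osteogenic medium (y axis) for measured members of 5 gene lists, 1 point a gene, with the number of points in brackets and the dashed line marking equal differences. Below the dashed line lie 44 of 45 mitosis and 34 of 35 replication genes, and above it 29 of 33 folding, 27 of 29 ATF4 and 12 of 28 immediate-early genes.

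Txnip had the lowest difference among genes above the floor on both arrays. It encodes an alpha-arrestin that removes glucose transporters from the cell surface, inhibits thioredoxin, and is itself induced by glucose. Its signal was 1841 at day 3 and 146 at day 6 in osteogenic medium, and 2592 and 3328 in normal medium. The osteogenic day 6 array stood far below the other 3, 12.6-fold under day 3, and the second probe set gave -4.20, below the floor at day 6. Arrdc4, its closest relative and also glucose-induced, went from 226 to below the floor, at least 3.90-fold lower. Other genes of this list of 11 were higher, namely Arrdc2 (1.11) and Klf15 (1.09), both dim, with signals of 134 and 133 at day 6.

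Genes of hypoxia and glycolysis, many of them targets of the oxygen-sensing factor HIF, had 6 of 28 members higher and 0 lower. The higher members were 21.4% of the list, against 3.7% of all measured genes. The median was 0.59, against -0.12 in normal medium. Vegfa, the vascular growth factor, had a signal of 540.5 at day 3 and 1809 at day 6 in osteogenic medium, and 553 and 613 in normal medium, 3.35-fold, and its second probe set gave 1.05. Egln3, the oxygen sensor that is also a HIF target, was 2.77-fold higher and Bnip3, a mitophagy receptor, 2.39-fold. The second, dimmer probe set of Egln3 gave 0.37. Car9, a carbonic anhydrase induced by hypoxia, and Ankrd37 were below the floor at day 3 and at least 2.84-fold and 2.51-fold higher. The enolase gene Eno2 was 2.46-fold higher, and in normal medium its difference was 1.20. The other glycolytic enzymes of the list, named after their values were seen, lay short of 2-fold. Pfkl was at 0.86, Pgk1 at 0.67, Hk2 at 0.55, Aldoa at 0.51 and Pkm at 0.26. Hk1 (-0.0065), Pfkp (-0.0080), Tpi1 (-0.043), Ldha (-0.055) and Pgam1 (-0.064) were close to 0, and Pfkl and Tpi1 each had at least 1 other probe set on the opposite side of it.

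Oxidative phosphorylation genes, the respiratory chain and ATP synthase of mitochondria, had 26 of 28 members below 0, from -0.61 to 0.019, and none past 2-fold. Their median was -0.26 in osteogenic and -0.079 in normal medium, where 24 of 28 lay below 0. Ribosomal protein genes, a group of very bright probe sets, had a range from -0.10 to 0.42 and a median of 0.055, against -0.19 in normal medium.

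Cholesterol and fatty acid synthesis genes, which the factor SREBP2 induces when sterols are low, lay almost all below 0. This held for 27 of 29 members in osteogenic and 22 of 29 in normal medium, with medians of -0.53 and -0.094. The 1 that passed 2-fold was Idi1, an isomerase of the isoprenoid path, with a signal of 5338 at day 3 and 1995 at day 6 in osteogenic medium, and 2157 and 3029.7 in normal medium. It was highest at day 3 in osteogenic medium and 2.68-fold lower at day 6, while in normal medium the difference was 0.49. Its second probe set gave -0.83. Summed over the list, the signal was 130566 and 96451 in osteogenic and 103789 and 98901 in normal medium, so day 3 in osteogenic medium was the array that stood above the rest. TCACCCCA, a form of the sterol regulatory element, was in 2 of 22 promoters of the list (Hmgcs1 and Srebf2), against 1.81% of measured and 1.77% of all genes.

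Lysosome genes lay almost all on the other side. The lysosome breaks down matrix and spent organelles, and the factors TFEB, TFE3 and MITF induce its genes. Of 33 measured members 5 were higher (15.2%, against 3.7% of all measured genes) and 0 lower, and 32 lay above 0. In normal medium 28 of 32 lay above 0 as well. The median was 0.45 in osteogenic and 0.17 in normal medium. Gpnmb, a glycoprotein of lysosomes and of maturing osteoblasts, had a signal of 298 at day 3 and 1208 at day 6 in osteogenic medium, and 127 and 179 in normal medium, 4.05-fold. Neu1, a sialidase, was 3.06-fold higher, Mitf 2.49-fold and the calcium channel gene Mcoln1 2.23-fold. Across other processing settings their lowest log2 differences were 0.47, 0.13 and 0.56. Sqstm1, the autophagy receptor p62, was at 1.14, but its other probe set, near the floor, had the opposite sign (-0.25).

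The sequence TCACGTGA, the CLEAR element read by TFEB and its relatives and the same on both strands, was in 6 of 25 promoters of the list (24.0%), against 2.22% of measured and 1.12% of all genes. These factors induce lysosome genes, so here too the share describes the list alone. The holders were Ctsa, Ctsd, Gla, Atp6v0d1, Atp6v1a and Mcoln1. Upstream stretches are shown for Mcoln1, the 1 holder past 2-fold, and for the cathepsin D gene Ctsd, with the element in capitals.
Mcoln1 (chr8:3500448-3500505, + strand): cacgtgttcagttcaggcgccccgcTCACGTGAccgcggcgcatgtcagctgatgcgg
Ctsd (chr7:142387894-142387951, - strand): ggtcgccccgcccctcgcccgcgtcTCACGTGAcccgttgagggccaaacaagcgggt
The holders ranged from 0.013 (Atp6v1a) to 1.16 (Mcoln1), and Ctsd was at 0.72.

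**Figure D3:**
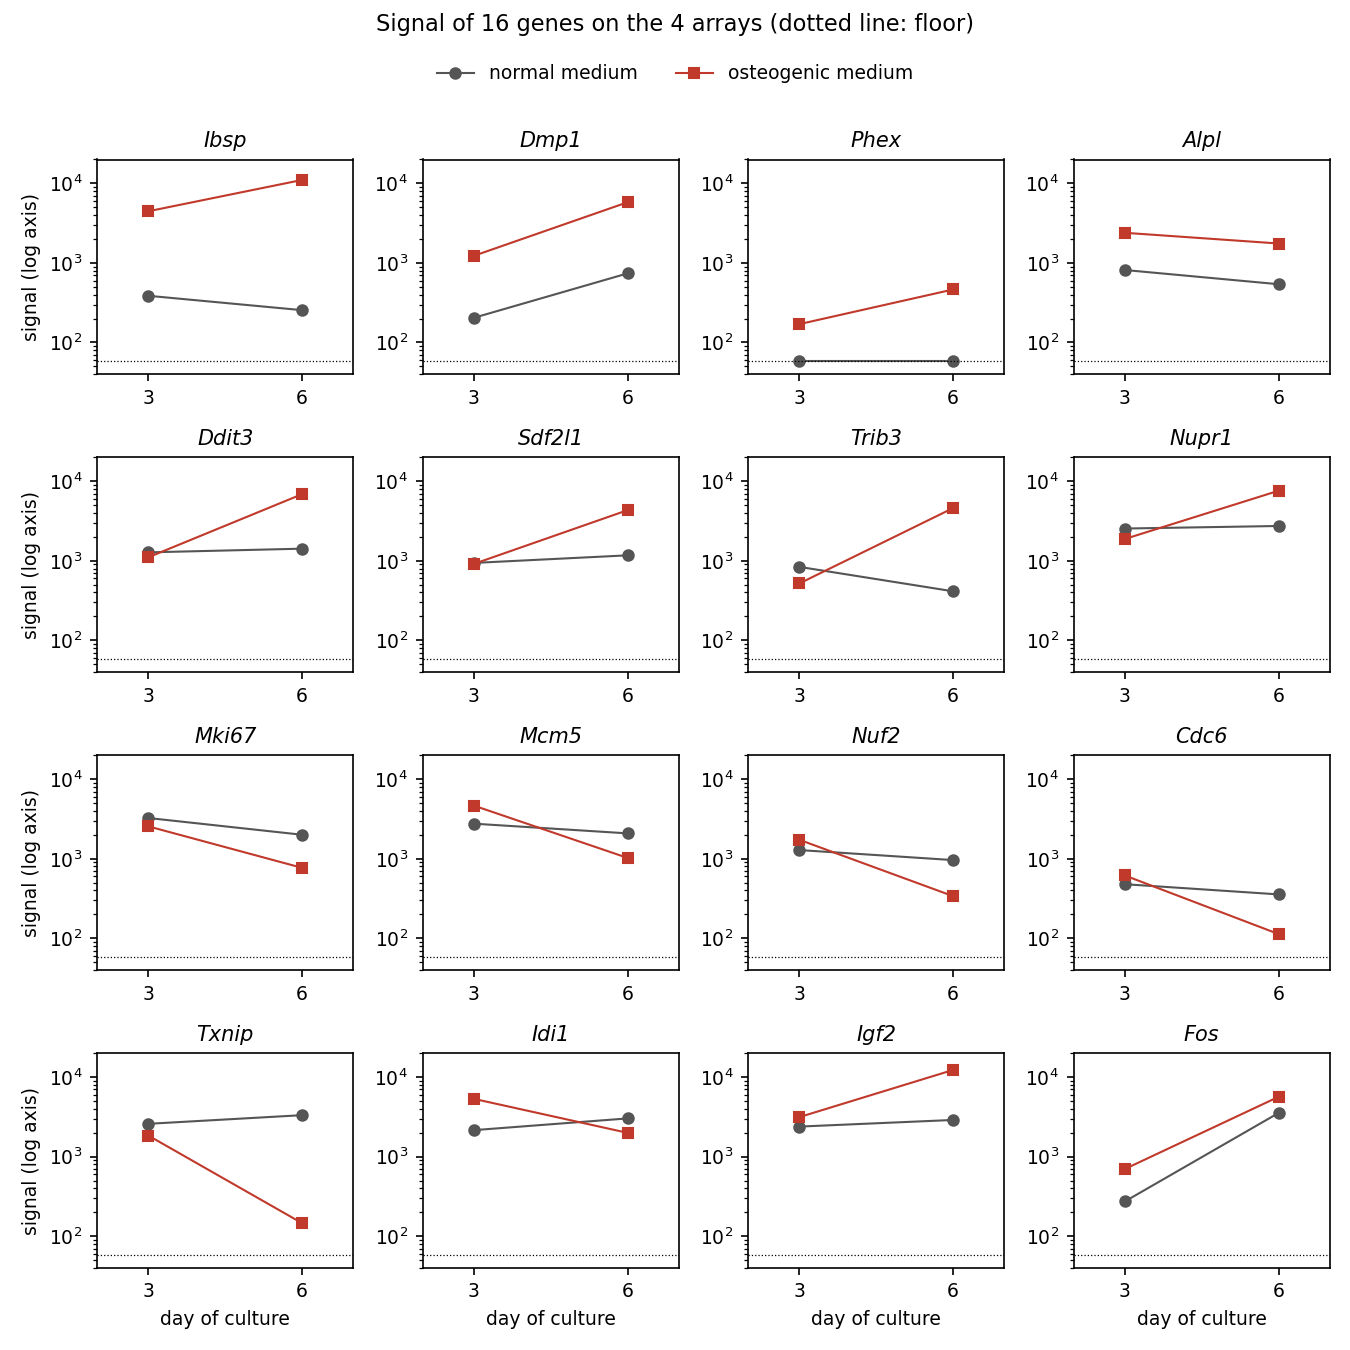
Signal of 16 genes on a log axis by day of culture (x axis), in normal medium (grey circles) and osteogenic medium (red squares), 1 array a point, with signals below the floor drawn at the dotted line of 57.8. In osteogenic medium Ibsp, Dmp1 and Phex are above normal medium at both days and higher again at day 6, Ddit3, Sdf2l1, Trib3 and Nupr1 are higher at day 6 alone, and Txnip is low at day 6 alone.

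Immediate-early genes are induced within minutes by serum, growth factors or handling. Of 28 measured, 9 were higher (32.1%, against 3.7% of all measured genes) and 0 lower at day 6 in osteogenic medium. In normal medium 8 were higher, against 0.741% of all measured genes there, and 1 was lower. The medians were 0.68 in osteogenic and 0.38 in normal medium. Fos, an AP-1 subunit, had a signal of 700.0 at day 3 and 5663 at day 6 in osteogenic medium, and 274 and 3546 in normal medium. It was low at day 3 and high at day 6 in both media, with a log2 difference of 3.02 in osteogenic and 3.70 in normal medium. Dusp1, which switches off MAP kinases, was 4.66-fold higher, Ier2 4.47-fold and Junb 3.09-fold, and in normal medium they were at 1.90, 2.73 and 1.83. Maff (1.48) and Fosl1 (1.47) were higher in osteogenic medium and below 0 in normal medium (-0.18 and -1.62).

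Feedback genes of the ERK pathway, by which growth factors reach the nucleus, had 6 of 18 members higher (33.3%) and 0 lower. Of all measured genes 3.7% were higher, and the median of the list was 0.69. That median was -0.040 over the genes' second brightest probe sets. Spry1, which restrains receptor tyrosine kinases, had a signal of 809 at day 3 and 2963 at day 6 in osteogenic medium, and 785 and 1262 in normal medium, 3.66-fold. The ERK phosphatase genes Dusp4 and Dusp6 were 3.29-fold and 2.39-fold higher, the ETS factor gene Etv4 2.62-fold, the EGF family ligand gene Ereg 2.43-fold and the cytokine gene Lif 2.19-fold. In normal medium 1 of 17 members was higher, and the median was 0.10.

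Factors by which osteoblasts act on osteoclasts, the cells that resorb bone, had 4 of 14 members higher (28.6%) and 0 lower. Of all measured genes 3.7% were higher. The median of the list was 0.57, against 0.21 in normal medium. Ptgs2, the inducible cyclooxygenase that makes prostaglandins, had a signal of 433 at day 3 and 2052 at day 6 in osteogenic medium, and 249 and 326 in normal medium, 4.74-fold, with 1.51 from its second probe set. Csf1, needed for osteoclast survival, had 3879 at day 3 and 7949 at day 6 in osteogenic medium, and 5434 and 3719 in normal medium, 2.05-fold, and its other 3 probe sets gave 1.04, 0.73 and 1.08. Il6 was at the floor on the other 3 arrays and at least 2.31-fold higher. Tnfrsf11b, or osteoprotegerin, a decoy receptor that holds back osteoclasts, was at -0.015, a value that turned to 0.031 after quantile normalization, and its target Tnfsf11, or RANKL, was at the floor on all 4 arrays. In the list of chemokines and cytokines, 5 of 13 measured members were higher (38.5%, against 3.7% of all measured genes). Of these Ccl7, a monocyte chemokine, was 4.06-fold higher from a signal of 85.2. Cxcl1 was at 2.01, with -0.13 from its other probe set. A further 12 of the 27 genes on the array were at the floor on all 4 arrays.

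Interferon response genes, the antiviral programme, had 6 of 25 members higher (24%) and 1 lower (4%), against 3.7% and 2.62% of all measured genes. The medians were 0.43 in osteogenic and 0.27 in normal medium. Rtp4 was 4.13-fold higher, Isg20, a nuclease, 2.64-fold and the factor gene Irf9 2.51-fold, whereas the GTPase gene Gbp2 was 2.15-fold lower. The other higher members were Oasl2 (1.28), Irf7 (at least 2.28-fold) and Gbp3 (1.01), which was named after its value was seen.

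Insulin-like growth factors are abundant in bone and act on osteoblasts through a shared receptor, with binding proteins that hold or release them. The 2 ligands went opposite ways. Igf2 had a signal of 3147 at day 3 and 12321 at day 6 in osteogenic medium, and 2391 and 2897 in normal medium, 3.92-fold higher at day 6 in osteogenic medium, with 0.99 from a second, dim probe set. Igf1 had 4705 at day 3 and 2039.9 at day 6 in osteogenic medium, and 5855 and 8034 in normal medium, 2.31-fold lower, and its 3 other probe sets gave -1.03, -0.96 and -1.15. The binding protein genes Igfbp5 and Igfbp6 were 3.13-fold and 2.12-fold higher. In normal medium the 4 genes were at 0.28, 0.46, 0.12 and 0.061. Over the whole list of IGF and FGF genes 3 of 23 were higher (13.0%) and 1 lower (4.35%). Of all measured genes 3.7% were higher and 2.62% lower. The median of the list was 0.32, against 0.066 in normal medium.

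The other pathways are set against all measured genes, of which 3.7% were higher and 2.62% lower. The share of higher genes was 3.23% for BMP and TGF-beta signalling, 10.8% for the Wnt list and 10% for Notch, Eph and ephrin genes. For BMP and TGF-beta signalling, 1 of 31 was higher and 0 lower, with a median of 0.10, against 0.016 in normal medium, and that gene was the ligand gene Tgfb1 (1.01, against -0.55 in normal medium). In the Wnt list, 4 of 37 were higher and 1 lower, with a median of 0.17, against -0.0056 in normal medium. The higher members were the secreted regulators Sfrp4 (at least 3.00-fold) and Rspo1 (1.28), the R-spondin receptor gene Lgr6 (at least 2.48-fold) and the Wnt receptor gene Fzd8 (1.12). Axin2, the feedback target often read as a gauge of Wnt activity, was lower, from 621 to 284. Among Notch, Eph and ephrin genes Notch3 (1.04) and the ligand gene Jag1 (1.37) were higher, of 20 measured, and 1 of the other probe sets of Jag1 had the opposite sign (-0.48). Across other processing settings the lowest log2 difference of Notch3 was 0.446. Prkg2, a cGMP-dependent protein kinase of cartilage and bone, had a signal of 2082 at day 3 and 7969 at day 6 in osteogenic medium, and 613 and 398 in normal medium. It was highest at day 6 in osteogenic medium, 3.83-fold above day 3, with 1.86 and 0.70 from its other probe sets. Prkg2 was the only 1 of 15 gap junction, pannexin and cGMP genes past 2-fold (6.67%).

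Of 24 measured collagens 3 were higher (12.5%, against 3.7% of all measured genes) and 0 lower. The median was 0.20, against -0.064 in normal medium. The higher collagens were not the chains of bone matrix. They were Col11a2 (4.48-fold) and Col2a1 (2.10-fold), both cartilage collagens, and Col7a1 (at least 2.13-fold), of the anchoring fibrils of skin. Of 21 genes that modify or process collagen, the 1 past 2-fold was Pcolce2, an enhancer of procollagen cleavage, 6.23-fold lower with a signal of 638 at day 3 and 102 at day 6 in osteogenic medium, and 576 and 359.5 in normal medium. The median of that list was 0.080, against 0.077 in normal medium. Its 1 lower gene was 4.76% of the list, against 2.62% of all measured genes.

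Among 29 proteoglycans and matrix glycoproteins 2 were higher (6.90%) and 3 lower (10.3%), against 3.7% and 2.62% of all measured genes. The median was -0.025, against 0.027 in normal medium. The higher genes were the calcium-binding matrix gene Smoc2 (2.82-fold) and Tgfbi (2.76-fold), an adhesion protein induced by TGF-beta whose other 3 probe sets gave 1.43, 1.30 and 1.68. Across other processing settings the lowest log2 difference of Smoc2 was 0.32. The lower genes were Thbs3 (2.64-fold), the integrin ligand gene Npnt (2.27-fold) and Dcn (2.02-fold), which encodes decorin, a proteoglycan that coats collagen fibrils. Npnt had a signal of 27030.0 at day 3 and 11925 at day 6 in osteogenic medium, and 38404 and 32627 in normal medium, and its 4 dimmer probe sets gave larger differences, from -1.33 to -2.16. Eln, which encodes elastin, was below the floor at day 3 and at least 3.37-fold higher. It was the only 1 of 14 elastic fibre genes past 2-fold (7.14%, against 3.7% of all measured genes). Mmp13, the collagenase of bone and cartilage, was the 1 protease past 2-fold, of 27 proteases and inhibitors, with a signal of 617 at day 3 and 3141 at day 6 in osteogenic medium, and 804 and 1956 in normal medium, 5.09-fold, and its difference in normal medium was 1.28. The share of that list that was higher, 3.7%, was that of all measured genes.

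Enzymes that use ascorbate as a cofactor, the 2-oxoglutarate dioxygenases outside collagen, had 1 of 24 members higher (4.17%, against 3.7% of all measured genes). This was Egln3, whose second probe set gave 0.37. The median of the list was 0.17, against -0.0029 in normal medium. Oxidative stress genes had 2 of 25 higher (8%), the haem oxygenase gene Hmox1 (1.32) and the extracellular superoxide dismutase gene Sod3 (1.16). Of all measured genes 3.7% were higher. The median of the oxidative stress list was 0.19, against -0.19 in normal medium.

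Markers of other cell types were counted where they lay at the floor on all 4 arrays. This was 11 of 15 for leukocytes, 6 of 12 for endothelium, 8 of 14 for adipocytes, 8 of 16 for chondrocytes, 7 of 15 for skeletal muscle and 2 of 15 for smooth muscle. The summed signal of the chondrocyte list was 6982 at day 3 and 9467 at day 6 in osteogenic medium and 4797 and 4198 in normal medium, and its 2 higher genes were Col11a2 and Col2a1. The leukocyte sums were 947 and 1087, and the endothelial sums 1361 and 1256, in osteogenic medium. The adipocyte sums were 3673 and 3967 and the skeletal muscle sums 3572 and 2714. Plin4, a lipid droplet gene (1.09), and Mlip, a muscle gene (1.42), were higher, and the troponin gene Tnnc2 (-1.03) lower.

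Of the smooth muscle genes, which contractile fibroblasts also express, 2 of 13 measured were lower (15.4%, against 2.62% of all measured genes) and 0 higher. In all 12 lay below 0, with Des (0.52) above it, and in normal medium 10 of 13 lay below 0. The list had a median of -0.64, against -0.12 in normal medium. Its summed signal was 157145 and 114325 in osteogenic and 165827 and 147476 in normal medium. Cnn1, which encodes calponin, had a signal of 413 at day 3 and 82.0 at day 6 in osteogenic medium, and 104 and 154 in normal medium. It was highest at day 3 in osteogenic medium and 5.04-fold lower at day 6. Lmod1, an actin nucleator, was 2.69-fold lower. Acta2, smooth muscle actin, named for its use as a marker, was at -0.51. Reference genes, a control list of 14, had 0 higher and 0 lower and a median of -0.084.

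**Figure D4:**
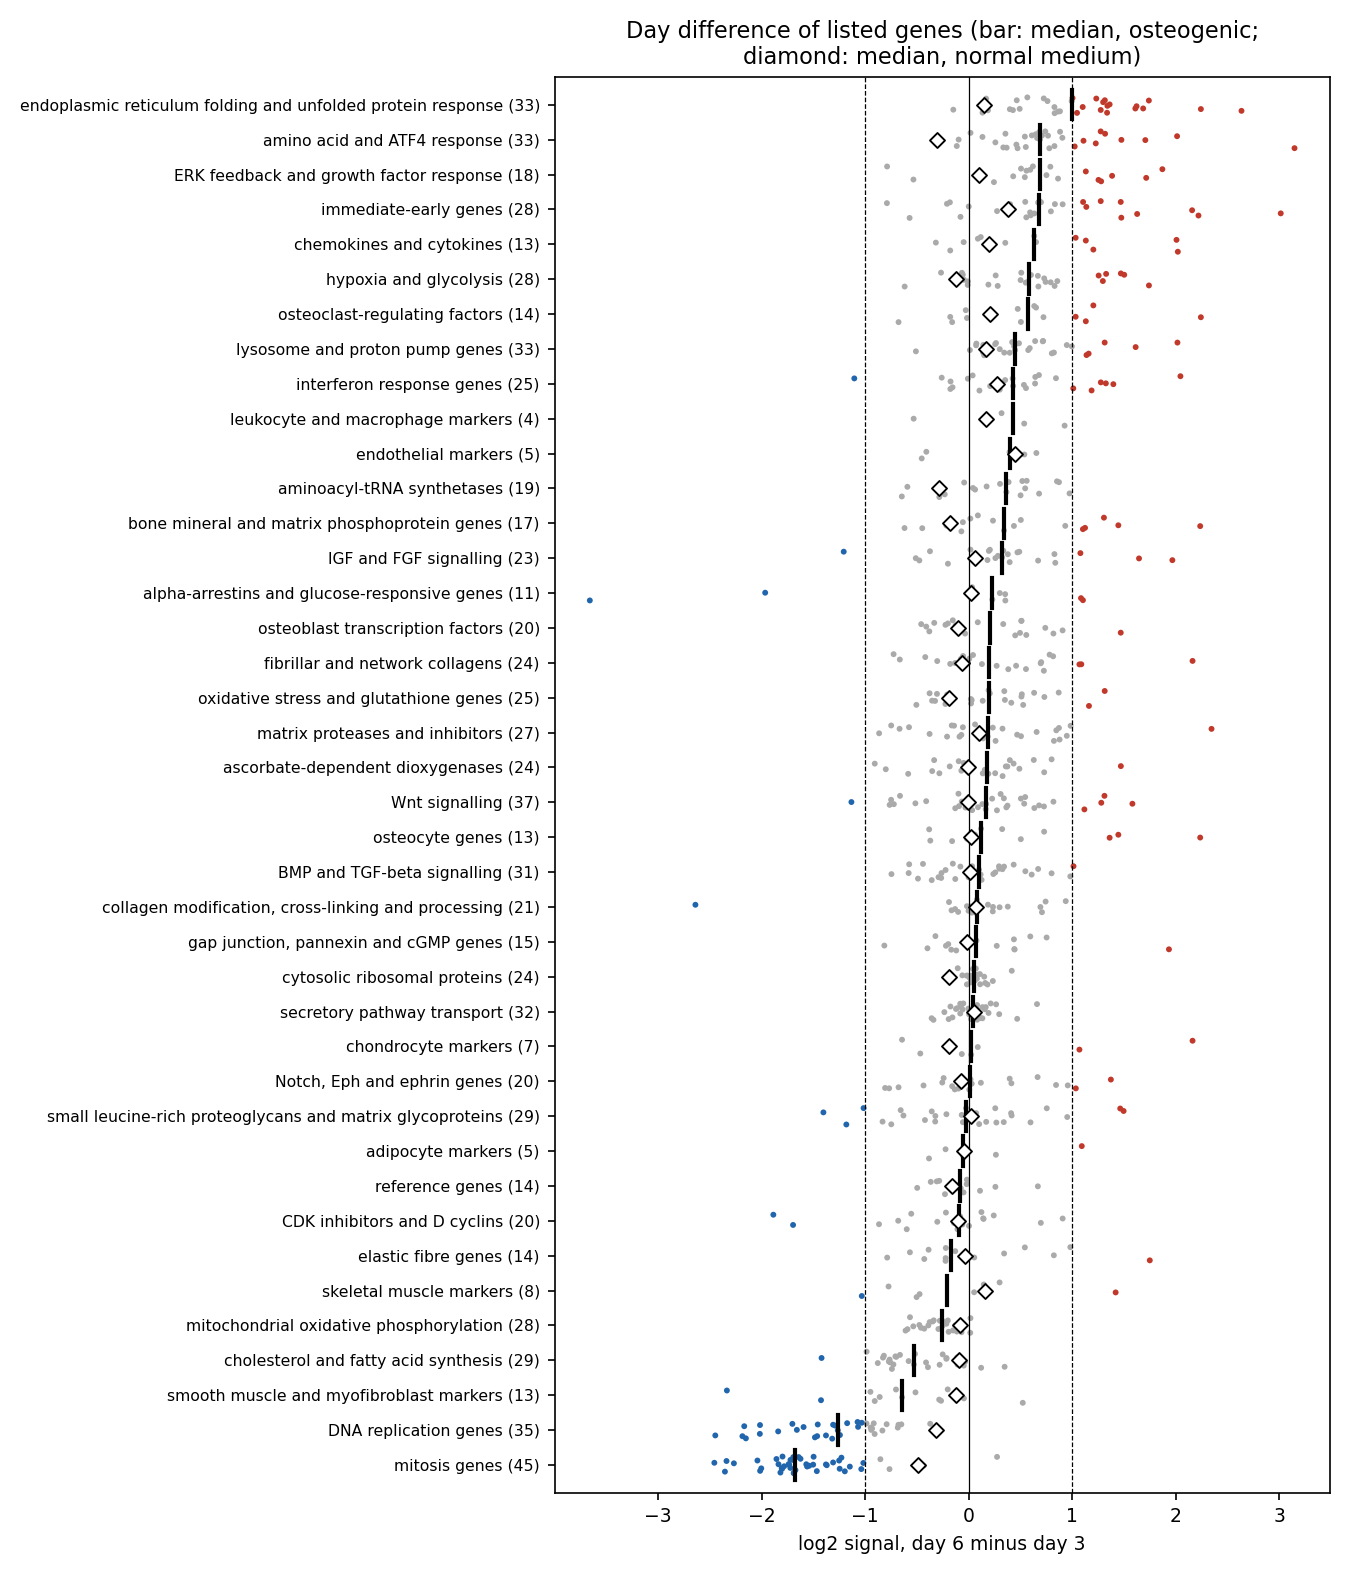
Log2 difference of day 6 minus day 3 in osteogenic medium (x axis) for each measured member of 40 gene lists, with the number of members in brackets, red at 2-fold or more higher and blue at 2-fold or more lower; bars are medians in osteogenic and diamonds medians in normal medium. Folding genes have the highest median (0.996) and mitosis genes the lowest (-1.67), and both bars lie far from their diamonds.

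Several of the largest differences belonged to genes in none of the lists. Avil encodes advillin, an actin-binding protein of sensory neurons and tuft cells, and had the highest difference among genes above the floor on both arrays. Its signal was 169 at day 3 and 1520.2 at day 6 in osteogenic medium, and 105 and 6.75 in normal medium, 8.98-fold, and it was below the floor in normal medium at day 6. Next were Nrip2 (2.96), Angptl6 (2.89) and Gadd45a (2.38), the last a stress-induced gene that slows the cell cycle, with -0.22, 0.16 and 0.70 in normal medium. Cdsn, which encodes the corneodesmosin of skin, had a signal of 924 at day 3 and 4806 at day 6 in osteogenic medium, and 1382 and 692 in normal medium. It was 5.20-fold higher in osteogenic medium, and its difference in normal medium was -0.998. Slc40a1, the iron exporter ferroportin, was 5.16-fold higher, with a difference of 0.034 in normal medium, and higher too were Hivep2 (5.06-fold), Klhl30 (4.88-fold), the proteoglycan gene Srgn (4.61-fold) and Ahnak2 (4.50-fold).

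For genes below the floor at day 3 in osteogenic medium and above it at day 6 the fold is a bound. Car6, a secreted carbonic anhydrase, and Sema7a, a membrane-bound semaphorin, were at least 8.39-fold and 8.37-fold higher, with signals of 485 and 484 at day 6. The second probe set of Sema7a gave a bound of 0.16. Tmem154, Cd300lb and the laminin gene Lama1 were at least 5.20-fold, 5.11-fold and 5.01-fold higher, and Wfdc3, the placental growth factor gene Pgf, Hip1r, Adssl1 and the potassium channel gene Kcnk2 at least 4.63-fold, 4.16-fold, 3.88-fold, 3.84-fold and 3.81-fold. In normal medium Hip1r had signals of 177 at day 3 and 139 at day 6, Sema7a 91.6 and 65.9, and Adssl1 72.6 and 68.2. The other genes were at 60.8 or less at day 3 and 68.2 or less at day 6 there, on either side of the floor. On the lower side, Otor, an inner ear and cartilage protein gene, went from 1275 to 198, 6.43-fold, and Aldh1a7, an aldehyde dehydrogenase gene, from 856 to 145, 5.91-fold. At day 3 their signals in normal medium were 511 and 334, below those in osteogenic medium. The kinase gene Ptk2b, Astn1, the homeobox gene Nkx2-5 and the peroxisome gene Pex10 were below the floor at day 6, at least 3.05-fold, 3.05-fold, 2.73-fold and 2.67-fold lower.

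**Figure D5:**
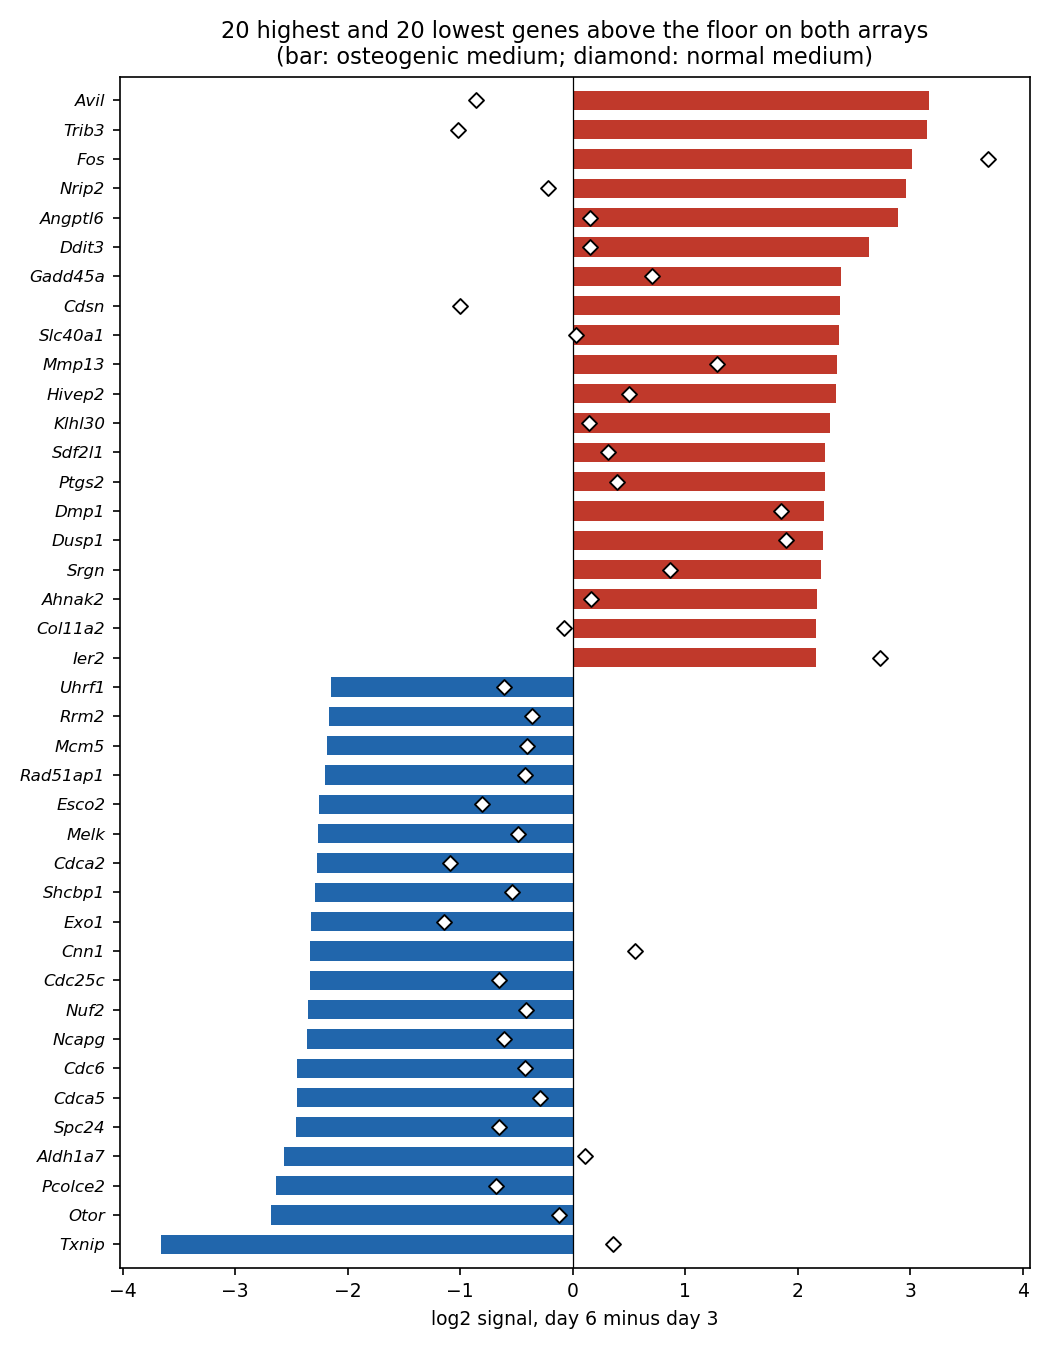
Log2 difference of day 6 minus day 3 (x axis) for the 20 highest and 20 lowest named genes above the floor on both osteogenic arrays, with bars for osteogenic medium (red higher, blue lower) and diamonds for normal medium. Fos, Ier2, Dmp1 and Dusp1 have diamonds close to or beyond the ends of their bars, and most of the blue bars belong to genes of replication and mitosis.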

How the data were processed

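RNA of 4 cultures was measured on 4 arrays, 1 per group, with groups taken from the labels; RNA of each, with an integrity number above 9.5 per the labels' protocols, was made into biotin-labelled cRNA from 500 ng. The deposited values are linear intensities, 1 for each probe set of an array, and the mean without the outer 2% at each end was 500.003 on every array, so they had been scaled. The summarisation method is not given in the sources used here, and no detection calls were used. Such scaling hides differences in the total RNA of a cell.

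Of 45101 probe sets 64 were controls, 34945 had 1 gene symbol in GEO's platform annotation, 932 several and 9160 none, and the last 2 kinds were left out. By Entrez ID 34741 matched RefSeq names of GRCm38.p6 and 0 symbols were updated. Arrays were shifted to a common 75th percentile (factors 0.988 to 1.02), values under the pooled 50th percentile (57.8) were set to it, and log2 was taken. The probe set with the highest mean stood for a gene. Genes past 2-fold were counted, and with 1 array per group no test was run. The number of arrays limits the precision.

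The members and the 40 gene lists were chosen with earlier results on these data known. Named were the 20 highest and lowest genes, the 10 highest and lowest bounds, up to 6 members of each list past 2-fold and 21 bone and stress genes, of which 15 were measured, 144 in all. Clone names and genes with another probe set above the floor on the opposite side of 0 were left out, except that the bone and stress genes were kept whatever their values, which applied to Col1a2. Others are said to be named after their values were seen, for a promoter or as a marker. Motifs were searched in RefSeq promoters. Their shares were not compared between genes that changed and genes that did not. The steps were tested on simulated data. Python 3.11.15, pandas 2.3.3, numpy 2.4.6 and matplotlib 3.10.9 were used.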

Additional observations from a re-analysis of the deposited data

Results flagged for a closer look

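Of the genes named by the rule, 2 differed by 2-fold or more in opposite directions between the days in the media, each from 1 array per group. Over all measured genes, 11 of the higher and 1 of the lower genes did so. Trib3 was higher at day 6 in osteogenic medium, with a log2 difference of 3.15, and lower in normal medium, with -1.02. Fosl1 was higher in osteogenic medium by 1.47 and lower in normal medium, where its day 6 signal was below the floor and the difference a bound of -1.62. Across other processing settings the lowest log2 difference in osteogenic medium was 2.07 for Trib3 and 0.57 for Fosl1. The difference between the media was not tested for either gene.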

How the results depend on the processing

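Across 12 other settings 2 of the 144 genes named by the rule changed sign, both near 0: Col1a2 (-0.27 to 0.048) and Tnfrsf11b (-0.039 to 0.031). None of the named genes past 2-fold did (0). Genes with another probe set of opposite sign had been left out, so settings that use other probe sets could hardly change a sign. The difference moved by at least the error of a probe set for 62 named genes with a pseudocount and 52 with averaged probe sets. With the second brightest probe set it moved for 32 and stayed within that error for 18. The medians of 15 of the 40 lists changed sign under at least 1 setting, 13 of them within 0.24 of 0, the error of a probe set. The counts of genes higher and lower, 442 and 313, were 473 and 282 with no scaling beyond the authors', 458 and 300 with a common median, 439 and 313 after quantile normalization, 324 and 276 with a pseudocount, 348 and 281 above the floor on both arrays, and 295 and 246 with a floor at percentile 60. Percentile 40 gave 622 and 477, percentile 80 gave 92 and 79, and neither floor nor filter gave 2383 and 2312. Averaged probe sets gave 288 and 221. The second brightest probe set gave 133 and 195 of 5700 measured genes, so that 40.5% of the genes past 2-fold were higher, against 58.5%. Leaving out _s, _x and _a probe sets, chosen after seeing the data, gave 366 and 282. The endothelial median, from 5 genes, turned to -0.0092 (40th percentile), -0.33 (80th), -0.22 (neither floor nor filter), -0.024 (second brightest) and -0.0059 (without _s, _x and _a), and the ERK feedback median to -0.040 (second brightest). The cause was not tested beyond fewer or more genes being measured. No paired analysis was possible because each group had 1 array, and for the same reason no replicate could be left out. Dim genes are limited by the floor, bright ones by the top of the range.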
